A study of Mus musculus with 12 samples.

Results

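The genes described here are 37 enzymes that place or remove acetyl groups on lysines of histones and other proteins, or remove methyl groups from histones. They are 11 demethylases, 11 classical histone deacetylases (HDACs), 6 sirtuins and 9 acetyltransferases, named as a list, and all 37 were measured among the 18193 genes of the arrays. Each gene was read from the brightest of the probe sets that carry its symbol alone, a probe set being the group of short DNA probes that reports 1 transcript. Levels are log2 intensities, and because probes differ in brightness a level is compared between cells and never between genes.

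Total RNA of C57Bl/6 mice aged 10 to 12 weeks was hybridised to 12 Affymetrix arrays. The 2 CD4+ T cell arrays came from spleen cells sorted as CD4+, CD8-, B220- and NK1.1-. The 4 PreMegE arrays came from bone marrow progenitors of megakaryocytes and red cells, sorted as lineage-, Kit+, Sca1-, CD150+, CD105- and CD41-. The 3 MPP arrays (multipotent progenitors) and the 3 HSC arrays (haematopoietic stem cells) came from lineage-, Kit+, Sca1+ marrow cells, with MPP CD150- and Flt3+ and HSC CD150+ and Flt3-. The labels name no mutation and no drug for any group. The HSC and MPP arrays were made for this study and the CD4+ T cell and PreMegE arrays were taken from 2 earlier ones, so study and population cannot be told apart in any comparison between these sets. The HSC and MPP samples were separately sorted. For the other groups the labels do not speak of separate animals, so the spread that p-values are based on is that between these arrays and may be technical.

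Acetyltransferases loosen the contact between histone tails and DNA and create docking sites for bromodomain proteins, and deacetylases reverse this. Classical HDACs use zinc and work mostly inside corepressor complexes. Sirtuins use NAD+, which ties their activity to metabolism. Jumonji (JmjC) demethylases need iron, oxygen and 2-oxoglutarate, whereas the LSD family uses a flavin. In blood formation, HDAC and LSD complexes are recruited by lineage factors to silence genes of other fates, and the acetyltransferase MOZ (Kat6a) is known to be needed for stem cell maintenance.

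The labels matched the sorted cells. Cd3d lay at 10.7 to 11.1 in CD4+ T cells and at 3.08 to 3.87 on the other arrays, Klf1 was highest in PreMegE, Flt3 in MPP and Mecom in HSC. Several sets of marker genes moved with the groups, and their part in the results below was not tested. The summed level of 6 mature neutrophil genes was 6.35 to 7.06 in CD4+ T cells, 9.23 to 11.21 in PreMegE, 6.89 to 8.09 in MPP and 8.73 to 11.99 in HSC, with the highest HSC value on replicate 2. B cell genes summed to 7.99 and 8.10 in CD4+ T cells and to 5.53 to 6.53 elsewhere. For 8 immediate early genes the sum was 11.1 to 11.7 in CD4+ T cells, 9.34 to 9.87 in PreMegE, 14.4 to 14.5 in MPP and 13.3 to 13.9 in HSC. Cycling genes summed to 8.84 and 8.97 in CD4+ T cells and to 11.3 to 12.5 elsewhere. The heat shock sum was 12.1 and 12.67 in CD4+ T cells, 11.66 to 12.02 in PreMegE, 12.73 to 12.80 in MPP and 12.72 to 13.41 in HSC, and within it Hspa1b lay at 7.53 and 10.4 in CD4+ T cells, and at 5.49 on HSC replicate 1 against 11.2 and 11.6 on HSC replicates 2 and 3. Erythroid genes summed to 6.99 and 7.09 in CD4+ T cells, 13.14 to 13.68 in PreMegE, 7.39 to 7.59 in MPP and 10.83 to 11.30 in HSC. Megakaryocyte genes summed to 6.56 and 7.06 in CD4+ T cells, 9.23 to 9.77 in PreMegE, 8.52 to 8.77 in MPP and 11.87 to 12.02 in HSC. Xist lay at 12.04 on HSC replicate 1, at 2.45 and 2.59 on HSC replicates 2 and 3 and at 10.9 to 12.4 on the other 9 arrays, so the HSC arrays mix sexes. Each RNA sample is a population average, in which fewer cells of a type and less RNA per cell cannot be told apart.

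With limma and Benjamini-Hochberg adjustment over all genes, 3 were called at adjusted p under 0.05 between MPP and HSC (8.11%, against 11.3% of all genes), 15 between PreMegE and HSC (40.5%, against 28.9%) and 21 between PreMegE and MPP (56.8%, against 33%). Between CD4+ T cells and HSC 23 were called (62.2%, against 37.8%), between CD4+ T cells and MPP 22 (59.5%, against 35.5%) and between CD4+ T cells and PreMegE 17 (45.9%, against 33.1%). When the fit was restricted to genes with a mean intensity at or above the median, 34 of the enzymes were kept. Their shares then came to 11.8% against 20.2% of all genes for MPP and HSC, 41.2% against 50.2% for PreMegE and HSC, and 61.8% against 54.2% for PreMegE and MPP. For CD4+ T cells the share was 61.8% against HSC, MPP and PreMegE alike, where that of all genes was 60.7%, 58.2% and 56.5%. In this fit the 4 shares of 61.8% lay near that of all genes, most closely between CD4+ T cells and HSC. These comparisons share arrays and are not independent of each other.

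A call with at least a 2-fold difference was made for 0 enzymes between MPP and HSC (4.7% of all genes), 9 between PreMegE and HSC (11.5%), 11 between PreMegE and MPP (14.5%), 13 between CD4+ T cells and HSC (23.2%), 11 between CD4+ T cells and MPP (22.1%) and 5 between CD4+ T cells and PreMegE (19.4%). The arrays of the 2 groups did not overlap for 11 enzymes between MPP and HSC (29.8% of all genes), 17 between PreMegE and HSC (31.6%) and 21 between PreMegE and MPP (39.3%). The same held for 29 between CD4+ T cells and HSC (54.3%), 27 between CD4+ T cells and MPP (57.8%) and 22 between CD4+ T cells and PreMegE (43.9%). By direction, 3 enzymes rose and 0 fell in MPP against HSC, where 6.38% of all genes rose and 4.93% fell. In PreMegE 7 rose and 8 fell against HSC (11.9% and 17% of all genes), and 6 rose and 15 fell against MPP (13.5% and 19.5%). In CD4+ T cells 13 rose and 10 fell against HSC (17% and 20.8%), 11 and 11 against MPP (15.5% and 20%), and 12 and 5 against PreMegE (16.3% and 16.8%).

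**Figure D1:**
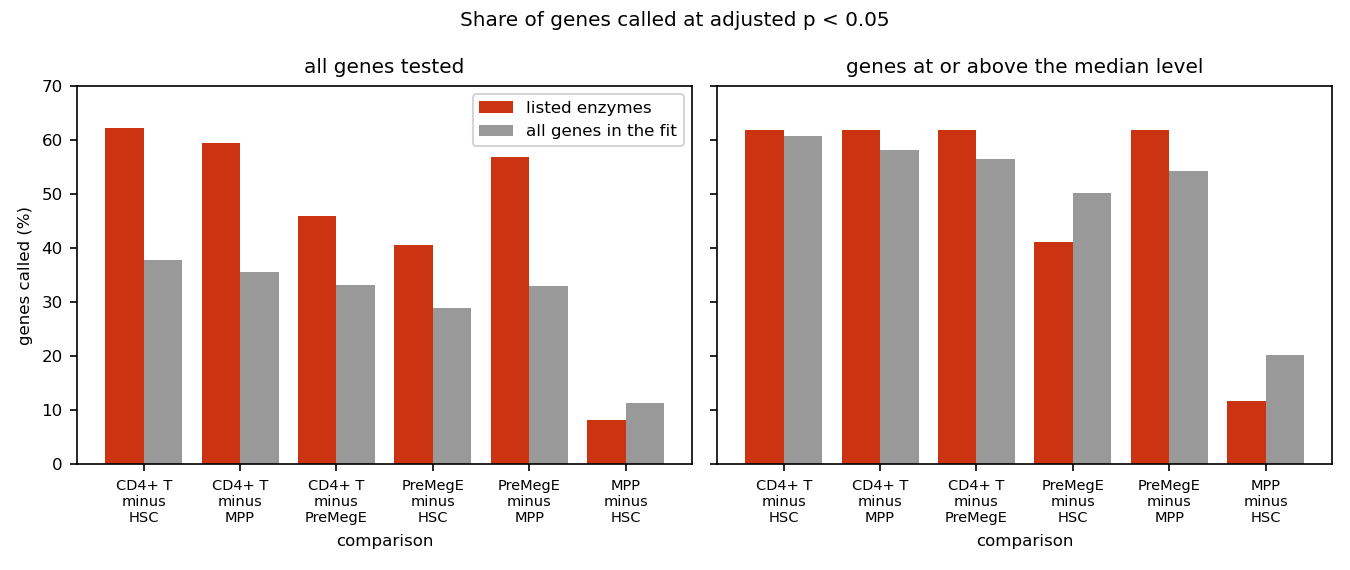
Percent of genes called at adjusted p under 0.05 (y axis) in each of 6 comparisons (x axis), with red bars for the 37 enzymes (left) or the 34 at or above the median level (right) and grey bars for all genes in the same fit. On the left the bars stand at 62.2% of the enzymes against 37.8% of all genes between CD4+ T cells and HSC, and on the right at 61.8% against 60.7%.

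In all 6 comparisons 7 enzymes remained without a call (Kdm2a, Kdm5a, Hdac4, Hdac10, Sirt1, Sirt6 and Kat6b). Sirt3 was called in 6 comparisons, and Kdm5b, Hdac6 and Ep300 in 5 each. The highest group mean fell in CD4+ T cells for 12 enzymes, in PreMegE for 10, in MPP for 8 and in HSC for 7. In HSC 0 enzymes were called higher and 0 lower than in each of the other populations, against 1.75% and 1.08% of all genes. Of the 101 calls over the 6 comparisons, 63 held with each array left out in turn, among them 14 of 15 between PreMegE and HSC, 0 of 3 between MPP and HSC and 5 of 17 between CD4+ T cells and PreMegE.

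**Figure D2:**
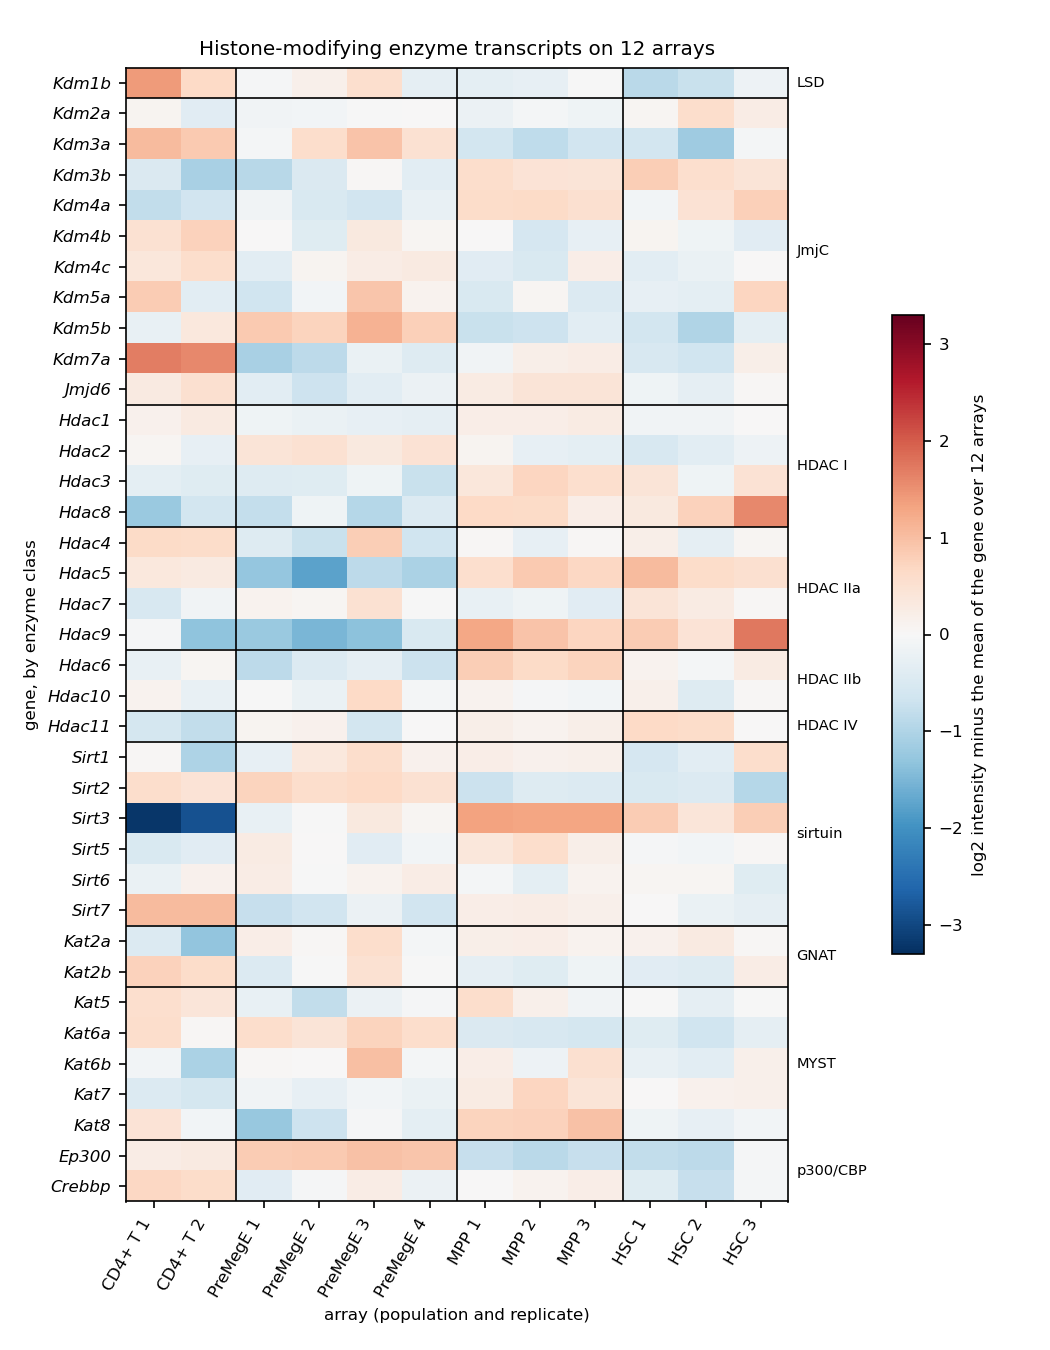
Log2 intensity of each of the 37 enzymes minus its mean over 12 arrays (colour), with genes in rows by enzyme class and arrays in columns by population. Sirt3 is lowest on both CD4+ T cell arrays, Hdac5 on the 4 PreMegE arrays, and Hdac8 and Hdac9 are low on both of these sets and higher on the 6 MPP and HSC arrays.

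The 11 listed demethylases were more often higher than lower in CD4+ T cells. Against HSC 7 rose and 2 fell (17% and 20.8% of all genes), and against MPP 6 rose and 2 fell (15.5% and 20%). Against PreMegE 4 rose and 1 fell (16.3% and 16.8%). Their medians were 0.66, 0.64 and 0.41, where those over all genes were -0.06, -0.02 and -0.06. Of the rises over HSC, those of Kdm4b, Kdm4c, Kdm5b and Jmjd6 ended when 1 array was left out. Of the rises over MPP, those of Kdm1b, Kdm4b, Kdm4c and Kdm5b did, as did the calls of Kdm1b, Kdm4b and Kdm5b against PreMegE. The falls of Kdm3b and Kdm4a against HSC and MPP held with each array left out in turn. In PreMegE, 3 rose and 2 fell against HSC (11.9% and 17% of all genes), and 2 rose and 4 fell against MPP (13.5% and 19.5%). Between MPP and HSC 0 of 11 were called, where 11.3% of all genes were. The smallest adjusted p was 0.0527, for Jmjd6 (0.51 ± 0.16). That difference passed without HSC replicate 3 or PreMegE replicate 2, at adjusted p = 0.0452 and 0.0437.

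Kdm7a, a JmjC enzyme for H3K9 and H3K27 methylation, was the demethylase with the largest difference. It lay at 8.67 and 8.59 in CD4+ T cells, 5.92, 6.13, 6.79 and 6.57 in PreMegE, 6.87, 7.20 and 7.25 in MPP, and 6.46, 6.34 and 7.18 in HSC. Both T cell arrays stood over 1 log2 unit above every other array. The log2 difference of CD4+ T cells was 1.97 ± 0.27 from HSC (SE, limma adjusted p = 2.29e-05), 1.52 ± 0.27 from MPP (adjusted p = 0.000297) and 2.28 ± 0.26 from PreMegE (adjusted p = 3.02e-06). A second probe set gave 1.06 and 0.57 against HSC and MPP, neither past the threshold. PreMegE lay 0.76 ± 0.23 below MPP (adjusted p = 0.0172), a call that ended without PreMegE replicate 1 or 2 or MPP replicate 2 or 3, at adjusted p = 0.0522 to 0.0736.

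Kdm1b, the flavin demethylase LSD2 that acts on H3K4, had 6.97 and 6.22 in CD4+ T cells, 5.52, 5.73, 6.12 and 5.28 in PreMegE, 5.23, 5.29 and 5.56 in MPP, and 4.67, 4.83 and 5.41 in HSC. It was highest in CD4+ T cells, with no overlap with any other group, at 1.63 ± 0.27 above HSC (adjusted p = 0.000172), 1.23 ± 0.27 above MPP (adjusted p = 0.00195) and 0.93 ± 0.26 above PreMegE (adjusted p = 0.0108). Without CD4+ T replicate 1, the higher of the pair, the last 2 calls ended at adjusted p = 0.0514 and 0.216. The PreMegE rise over HSC was 0.70 ± 0.23 (adjusted p = 0.0328) and did not survive leaving out any 1 of HSC replicates 1 and 2 and PreMegE replicates 2 and 3, at adjusted p = 0.0719 to 0.159.

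The paralogues Kdm3a and Kdm3b, both of which remove methyl groups from H3K9, went in opposite directions. Kdm3a had 10.01 and 9.83 in CD4+ T cells, 8.91, 9.54, 9.91 and 9.47 in PreMegE, 8.36, 8.13 and 8.32 in MPP, and 8.36, 7.79 and 8.89 in HSC. Kdm3b had 8.39 and 7.81 in CD4+ T cells, 7.94, 8.39, 8.91 and 8.52 in PreMegE, 9.46, 9.33 and 9.29 in MPP, and 9.67, 9.43 and 9.30 in HSC. CD4+ T cells and PreMegE thus lay above both MPP and HSC for Kdm3a and below both for Kdm3b, without overlap. Against HSC, Kdm3a differed by 1.57 ± 0.29 in CD4+ T cells (adjusted p = 0.000379) and 1.11 ± 0.24 in PreMegE (adjusted p = 0.00247). Kdm3b differed by -1.37 ± 0.24 (adjusted p = 0.000291) and -1.03 ± 0.20 (adjusted p = 0.00124). A dimmer second probe set of Kdm3b gave -0.22 and -0.10 in these 2 contrasts, neither past the threshold. Between CD4+ T cells and PreMegE the 2 genes differed by 0.47 ± 0.27 (adjusted p = 0.233) and -0.34 ± 0.23 (adjusted p = 0.306).

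Kdm5b removes H3K4 methylation and is known in mouse marrow as a modulator of stem cell function. It was highest in PreMegE, at 8.85, 8.72, 9.11 and 8.77, against 7.74 and 8.32 in CD4+ T cells, 7.24, 7.29 and 7.64 in MPP, and 7.38, 6.98 and 7.66 in HSC. All PreMegE arrays exceeded all others. PreMegE lay 1.52 ± 0.19 above HSC (adjusted p = 1.89e-05) and 1.47 ± 0.19 above MPP (adjusted p = 1.78e-05), and a second probe set gave 1.37 in each contrast. In CD4+ T cells the brighter probe set was 0.69 ± 0.23 above HSC (adjusted p = 0.0249), whereas the second gave -0.51, so the T cell direction rests on the choice of probe set. That call also ended without CD4+ T replicate 2 or HSC replicate 2, at adjusted p = 0.305 and 0.104. The call of T cells above MPP ended without CD4+ T replicate 2 or MPP replicate 1 or 2, at 0.104 to 0.401, and that of T cells below PreMegE without CD4+ T replicate 1, at 0.143.

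Members of the KDM4 family, which remove H3K9 and H3K36 methylation, diverged. Kdm4a had 5.77 and 5.94 in CD4+ T cells, 6.47, 6.08, 5.96 and 6.33 in PreMegE, 7.20, 7.22 and 7.12 in MPP, and 6.50, 7.05 and 7.36 in HSC. It was lower in CD4+ T cells than in HSC by 1.11 ± 0.22 (log2 difference -1.11, adjusted p = 0.000832) and in PreMegE by 0.76 ± 0.19 (-0.76, adjusted p = 0.006). With HSC replicate 1 as the only HSC array, assumed to vary like the other groups, the differences were -0.65 and -0.29, at adjusted p = 0.0637 and 0.458. A second Kdm4a probe set, dim on all arrays, gave 0.18 and 0.085 without a call. Kdm4b and Kdm4c were higher in CD4+ T cells than in HSC by 0.77 ± 0.23 (adjusted p = 0.0134) and 0.66 ± 0.23 (adjusted p = 0.0367), and than in MPP by 0.90 ± 0.23 and 0.70 ± 0.23. The Kdm4b calls against HSC and MPP ended without CD4+ T replicate 2 (adjusted p = 0.117 and 0.0585), and the one against PreMegE (0.64 ± 0.22) without either T cell array or PreMegE replicate 2 (0.053 to 0.233). Both Kdm4c calls ended without either T cell array or either of 2 arrays of the other group, HSC replicates 1 and 2 or MPP replicates 1 and 2, at adjusted p = 0.0577 to 0.19.

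Jmjd6, a lysyl hydroxylase of splicing factors that is also described as an arginine demethylase, lay at 7.69 and 7.94 in CD4+ T cells, 7.06, 6.73, 7.05 and 7.20 in PreMegE, 7.68, 7.82 and 7.82 in MPP, and 7.26, 7.10 and 7.44 in HSC. It was lower in PreMegE than in MPP by 0.77 ± 0.15 (-0.77, adjusted p = 0.000769), and CD4+ T cells lay 0.81 ± 0.17 above PreMegE (adjusted p = 0.00123). The T cell rise over HSC of 0.55 ± 0.18 (adjusted p = 0.0227) ended without CD4+ T replicate 2 or HSC replicate 1 or 2, at adjusted p = 0.0506 to 0.181. A second Jmjd6 probe set added calls of -0.92 for PreMegE against HSC (adjusted p = 0.00274) and 0.71 for MPP against HSC (adjusted p = 0.0488).

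Kdm2a, which acts on H3K36 and binds CpG islands, and Kdm5a, a paralogue of Kdm5b, were not called in any of the 6 comparisons by their brightest probe sets, which in CD4+ T cells were 0.44 ± 0.18 below (-0.44) and 0.21 ± 0.42 above HSC. Their other probe sets did differ. The next 2 Kdm5a probe sets by brightness lay 1.33 and 2.80 higher in CD4+ T cells and 1.55 and 2.80 higher in PreMegE than in HSC, and a dimmer one lay lower in both, at -1.16 and -0.93. The second Kdm2a probe set lay 1.11 higher in PreMegE than in HSC, where the brightest gave -0.35. Kdm2a was called lower in CD4+ T cells than in HSC when CD4+ T replicate 1 or HSC replicate 1 was left out, at -0.68 and -0.56 (adjusted p = 0.0236 and 0.0396). Which transcripts these probes report was not tested.

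**Figure D3:**
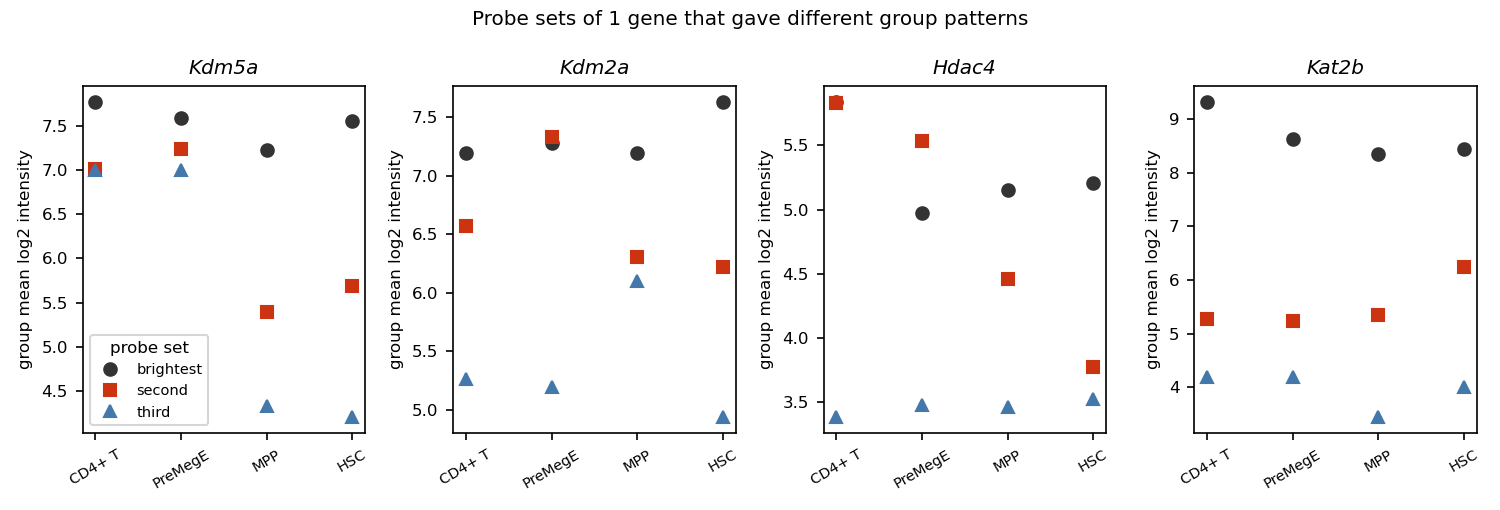
Mean log2 intensity per population (y axis) for the 3 brightest probe sets of Kdm5a, Kdm2a, Hdac4 and Kat2b. For Kdm5a the brightest probe set has means of 7.77, 7.59, 7.23 and 7.56 in CD4+ T cells, PreMegE, MPP and HSC, while the next has 7.02, 7.23, 5.39 and 5.69.

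Against HSC and MPP, classical HDACs were called lower more often than higher in both PreMegE and CD4+ T cells. Of the 11, 5 fell and 1 rose in PreMegE against HSC (17% and 11.9% of all genes). Against MPP 6 fell and 1 rose there (19.5% and 13.5%). In CD4+ T cells 5 fell and 0 rose against HSC (20.8% and 17%), and likewise 5 and 0 against MPP (20% and 15.5%). Against PreMegE 3 rose and 1 fell in CD4+ T cells (16.3% and 16.8%). The T cell falls of Hdac3, Hdac7 and Hdac9 against HSC ended when 1 array was left out. Those of Hdac9 and Hdac11 against MPP did so too, as did the calls of Hdac1, Hdac2 and Hdac6 against PreMegE. The medians were -0.51 for PreMegE and -0.40 for CD4+ T cells against HSC, where those of all genes were -0.01 and -0.06. Against MPP they were -0.46 and -0.37, where those of all genes were 0.02 and -0.02.

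Class IIa HDACs carry little deacetylase activity of their own. They bind MEF2 transcription factors and recruit corepressors, and kinases of the CaMK and PKD families release them from the nucleus through 14-3-3 proteins. Hdac5 lay at 7.43 and 7.37 in CD4+ T cells, 5.78, 5.31, 6.21 and 6.02 in PreMegE, 7.61, 7.93 and 7.76 in MPP, and 8.10, 7.68 and 7.60 in HSC. The 4 PreMegE arrays were the lowest of all 12. Hdac5 fell in PreMegE by 1.96 ± 0.20 against HSC (-1.96, 3.9-fold lower, adjusted p = 2.27e-06) and by 1.94 ± 0.20 against MPP (-1.94, adjusted p = 1.62e-06), and CD4+ T cells were 1.57 ± 0.22 above PreMegE (adjusted p = 3.71e-05). CD4+ T cells themselves differed from HSC by -0.40 ± 0.24 (adjusted p = 0.222).

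Hdac9 lay at 3.99 and 2.68 in CD4+ T cells, 2.80, 2.52, 2.65 and 3.52 in PreMegE, 5.29, 4.95 and 4.72 in MPP, and 4.86, 4.48 and 5.75 in HSC. CD4+ T cells and PreMegE were below MPP and HSC on every array. The PreMegE mean of 2.87 was under that group's lower quartile of 3.32 over genes, so the differences of -2.15 ± 0.33 from HSC (adjusted p = 0.000136) and -2.11 ± 0.33 from MPP (adjusted p = 0.000121) start from a level that may not lie above background. In CD4+ T cells the difference was -1.69 ± 0.40 from HSC (adjusted p = 0.00274) and -1.65 ± 0.40 from MPP (adjusted p = 0.00344). Without CD4+ T replicate 2, the lower of the pair, it was -1.04 from HSC, and both calls ended, at adjusted p = 0.0826 and 0.102. A second Hdac9 probe set averaged 2.66 to 3.15 in all 4 populations.

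Hdac4 and Hdac7, the other class IIa members, did not share this fall. Hdac4 differed in PreMegE by -0.24 ± 0.29 from HSC (adjusted p = 0.61), and its second probe set by 1.76 (adjusted p = 1.41e-05). That probe set also put CD4+ T cells 2.05 above HSC (adjusted p = 7.15e-06). The brightest Hdac4 probe set had 5.85 and 5.82 in CD4+ T cells, 4.80, 4.49, 6.03 and 4.56 in PreMegE, 5.26, 4.94 and 5.27 in MPP, and 5.42, 4.92 and 5.29 in HSC. PreMegE replicate 3 stood more than 1 unit above the other PreMegE arrays, and without it the PreMegE difference from HSC was -0.59 (adjusted p = 0.0136) and that of CD4+ T cells from PreMegE 1.22 (adjusted p = 8.86e-05), against 0.87 ± 0.32 (adjusted p = 0.0512) with it. Without it Hdac4 was also called between PreMegE and MPP, at -0.54 (adjusted p = 0.0191), and in CD4+ T cells against HSC and MPP, at 0.63 (adjusted p = 0.0127) and 0.68 (adjusted p = 0.00809). Hdac7, known for its role in T cell development, had 7.53 and 7.93 in CD4+ T cells, 8.05 to 8.56 in PreMegE, 7.69 to 7.91 in MPP and 8.09 to 8.48 in HSC. The T cell difference of Hdac7 from HSC of -0.57 ± 0.20 (adjusted p = 0.0311) ended without CD4+ T replicate 1 or HSC replicate 1 or 2, at adjusted p = 0.0669 to 0.29. The second Hdac7 probe set gave 0.47 and the mean of both -0.05 (adjusted p = 0.865), so the direction rests on 1 probe set. Its T cell difference from PreMegE, -0.49 ± 0.19 (adjusted p = 0.0529), passed without CD4+ T replicate 2, PreMegE replicate 4 or HSC replicate 3, at adjusted p = 0.0359 to 0.0482, and its MPP difference from HSC, -0.50 ± 0.17 (adjusted p = 0.0864), passed without PreMegE replicate 3, at 0.0483.

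Because Hdac5 and Hdac9 fell together in PreMegE, the promoters of the enzymes were read for the 8-base MEF2-type core CTATTTTT on either strand, a motif chosen after the sequences had been seen. In muscle, Hdac9 is known as a target of MEF2. In the 250 bases before the start of RefSeq genes (GRCm38.p6), 29 of the 37 enzymes matched with 42 windows, and the core occurred in 2 of them, one each of Hdac5 and Hdac9, against 457 of 32851 windows of all genes (1.39%). The windows are printed 5′ to 3′ on the minus strand of the gene, with the core in capitals. They are Hdac5 at chr11:102230173-102230422, the Hdac9 start with the core at chr12:34528890-34529139, and the other Hdac9 start, which has no match, at chr12:34917096-34917345.
Hdac5: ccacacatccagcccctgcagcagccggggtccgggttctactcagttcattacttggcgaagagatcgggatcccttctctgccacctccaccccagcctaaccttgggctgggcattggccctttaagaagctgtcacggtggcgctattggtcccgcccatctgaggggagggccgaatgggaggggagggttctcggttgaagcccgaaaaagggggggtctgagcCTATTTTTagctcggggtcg
Hdac9 first start: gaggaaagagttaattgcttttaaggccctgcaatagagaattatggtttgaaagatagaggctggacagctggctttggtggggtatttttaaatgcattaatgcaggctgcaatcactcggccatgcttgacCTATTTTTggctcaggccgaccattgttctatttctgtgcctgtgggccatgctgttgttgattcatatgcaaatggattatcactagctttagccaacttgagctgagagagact
Hdac9 second start: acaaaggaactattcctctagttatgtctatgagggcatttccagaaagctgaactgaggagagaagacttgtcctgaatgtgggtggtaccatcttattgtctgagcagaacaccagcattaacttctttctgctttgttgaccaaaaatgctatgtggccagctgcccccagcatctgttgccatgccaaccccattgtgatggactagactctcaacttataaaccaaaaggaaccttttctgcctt

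The core begins 20 bases before the start in Hdac5 and 116 bases before it in Hdac9. The Hdac5 window is rich in CG pairs, with 12, against 2 and 0 in the Hdac9 windows and a median of 6 over all promoters. A match of letters is a description and no evidence that a factor binds there. Since the motif was chosen with these sequences in view, its count beside that of all genes is no test of enrichment.

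The partners of class IIa HDACs differed widely between the cells. Mef2c, a MEF2 factor known for its part in lymphoid and myeloid fate choice, had 6.68 and 5.64 in CD4+ T cells, 9.73 to 10.2 in PreMegE, 9.85 to 10.0 in MPP and 10.7 to 11.1 in HSC. CD4+ T cells fell by 4.73 ± 0.25 against HSC (log2 difference -4.73, adjusted p = 6.58e-10), and MPP lay 0.97 ± 0.23 below HSC (-0.97, adjusted p = 0.0112). Camk4 and Prkd2, kinases that phosphorylate class IIa HDACs, were in CD4+ T cells 3.61 ± 0.21 and 3.18 ± 0.32 above HSC (adjusted p = 1.26e-09 and 7.14e-07). Prkd3 was lower in PreMegE than in HSC by 1.32 ± 0.18 (-1.32, adjusted p = 3.76e-05). Of the 11 genes listed as partners of this class, 3 rose and 5 fell in CD4+ T cells against HSC (17% and 20.8% of all genes). In PreMegE 1 rose and 3 fell against HSC (11.9% and 17%).

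Class I HDACs, which include the catalytic cores of the Sin3, NuRD, CoREST and NCoR complexes, split. Hdac2 was higher in PreMegE, at 9.84, 9.91, 9.73 and 9.88, against 9.47 and 9.15 in CD4+ T cells, 9.50, 9.14 and 9.09 in MPP, and 8.89, 9.05 and 9.24 in HSC. Every PreMegE array exceeded every other, and the difference was 0.78 ± 0.15 from HSC (adjusted p = 0.000933) and 0.59 ± 0.15 from MPP (adjusted p = 0.00584). A second Hdac2 probe set gave 0.21 and 0.12, neither past the threshold. CD4+ T cells lay 0.53 ± 0.17 below PreMegE (-0.53, adjusted p = 0.0249), a call that ended without CD4+ T replicate 2 or PreMegE replicate 2, at adjusted p = 0.263 and 0.0534. Hdac1, the close paralogue of Hdac2, was lowest in PreMegE, with 9.14 and 9.30 in CD4+ T cells, 8.69 to 8.84 in PreMegE, 9.20 to 9.25 in MPP and 8.86 to 8.99 in HSC. Its PreMegE difference from HSC was small, at -0.16, and not called (adjusted p = 0.395). Hdac1 was lower in PreMegE than in MPP by 0.46 ± 0.12 (-0.46, adjusted p = 0.00744), and CD4+ T cells were 0.46 ± 0.14 above PreMegE (adjusted p = 0.0159), a call ending without CD4+ T replicate 2 at adjusted p = 0.145.

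Hdac3, the enzyme of the NCoR complexes, and Hdac8, which also deacetylates cohesin, were low in both CD4+ T cells and PreMegE. Hdac3 had 7.14 and 7.06 in CD4+ T cells, 7.02, 7.06, 7.32 and 6.72 in PreMegE, 7.83, 8.17 and 8.02 in MPP, and 7.87, 7.32 and 7.94 in HSC. Hdac8 had 3.45 and 4.06 in CD4+ T cells, 3.89, 4.53, 3.74 and 4.21 in PreMegE, 5.34, 5.30 and 4.89 in MPP, and 4.98, 5.44 and 6.25 in HSC. Both separated CD4+ T cells and PreMegE from MPP and HSC without overlap, though for Hdac3 the highest PreMegE and the lowest HSC array were both at 7.32 after rounding. Hdac8 differed from HSC by -1.80 ± 0.32 in CD4+ T cells (adjusted p = 0.000288) and -1.47 ± 0.27 in PreMegE (adjusted p = 0.000623). Hdac3 differed from HSC by -0.61 ± 0.21 (adjusted p = 0.0332) and -0.68 ± 0.18 (adjusted p = 0.0086), and the T cell call ended without either T cell array or HSC replicate 1 or 3, at adjusted p = 0.0887 to 0.142. Hdac8 lies on the X chromosome, and its lowest HSC value was on replicate 1, the HSC array with Xist. With that array as the only HSC sample the PreMegE difference was -0.89 (adjusted p = 0.0675).

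Hdac6 is a mainly cytoplasmic class IIb enzyme that deacetylates tubulin. It had 6.27 and 6.57 in CD4+ T cells, 5.64, 6.05, 6.22 and 5.80 in PreMegE, 7.33, 7.14 and 7.24 in MPP, and 6.63, 6.44 and 6.77 in HSC. MPP were highest and PreMegE lowest, without overlap with any other group. PreMegE lay 1.31 ± 0.16 below MPP (-1.31, adjusted p = 1.07e-05) and 0.69 ± 0.16 below HSC (-0.69, adjusted p = 0.0039), and CD4+ T cells 0.81 ± 0.19 below MPP (-0.81, adjusted p = 0.00295). MPP lay 0.62 ± 0.17 above HSC (adjusted p = 0.028), a call that ended when any 1 of HSC replicates 1 and 2 and MPP replicates 1 to 3 was left out, at adjusted p = 0.0547 to 0.114. The T cell difference from PreMegE, 0.49 ± 0.18 (adjusted p = 0.0481), ended without any 1 of 9 arrays, among them both T cell arrays at adjusted p = 0.051 and 0.343. Hdac6 is also X-linked, and against HSC replicate 1 alone the PreMegE difference was -0.70 (adjusted p = 0.0585).

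Hdac11, the single class IV member, was lower in CD4+ T cells, at 6.14 and 5.90, against 6.81, 6.87, 6.11 and 6.72 in PreMegE, 6.91, 6.83 and 6.92 in MPP, and 7.36, 7.33 and 6.72 in HSC. T cells lay below MPP and HSC on every array, by 1.12 ± 0.24 against HSC (-1.12, adjusted p = 0.0013) and 0.86 ± 0.24 against MPP (-0.86, adjusted p = 0.00877), the second of which ended without CD4+ T replicate 2 at adjusted p = 0.0835. PreMegE lay 0.51 ± 0.20 below HSC (-0.51, adjusted p = 0.0691). Without HSC replicate 3 this was -0.72 and passed, at adjusted p = 0.0144. The T cell difference from PreMegE of -0.61 ± 0.22 (adjusted p = 0.0505) passed without PreMegE replicate 3 or HSC replicate 3, at adjusted p = 0.0049 and 0.029. On the second Hdac11 probe set PreMegE lay at -1.22 from HSC and CD4+ T cells at -0.88 from PreMegE, both called (adjusted p = 0.000372 and 0.00747). Hdac10, a polyamine deacetylase of class IIb, was not called anywhere, and its group means lay between 6.45 and 6.62.

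**Figure D4:**
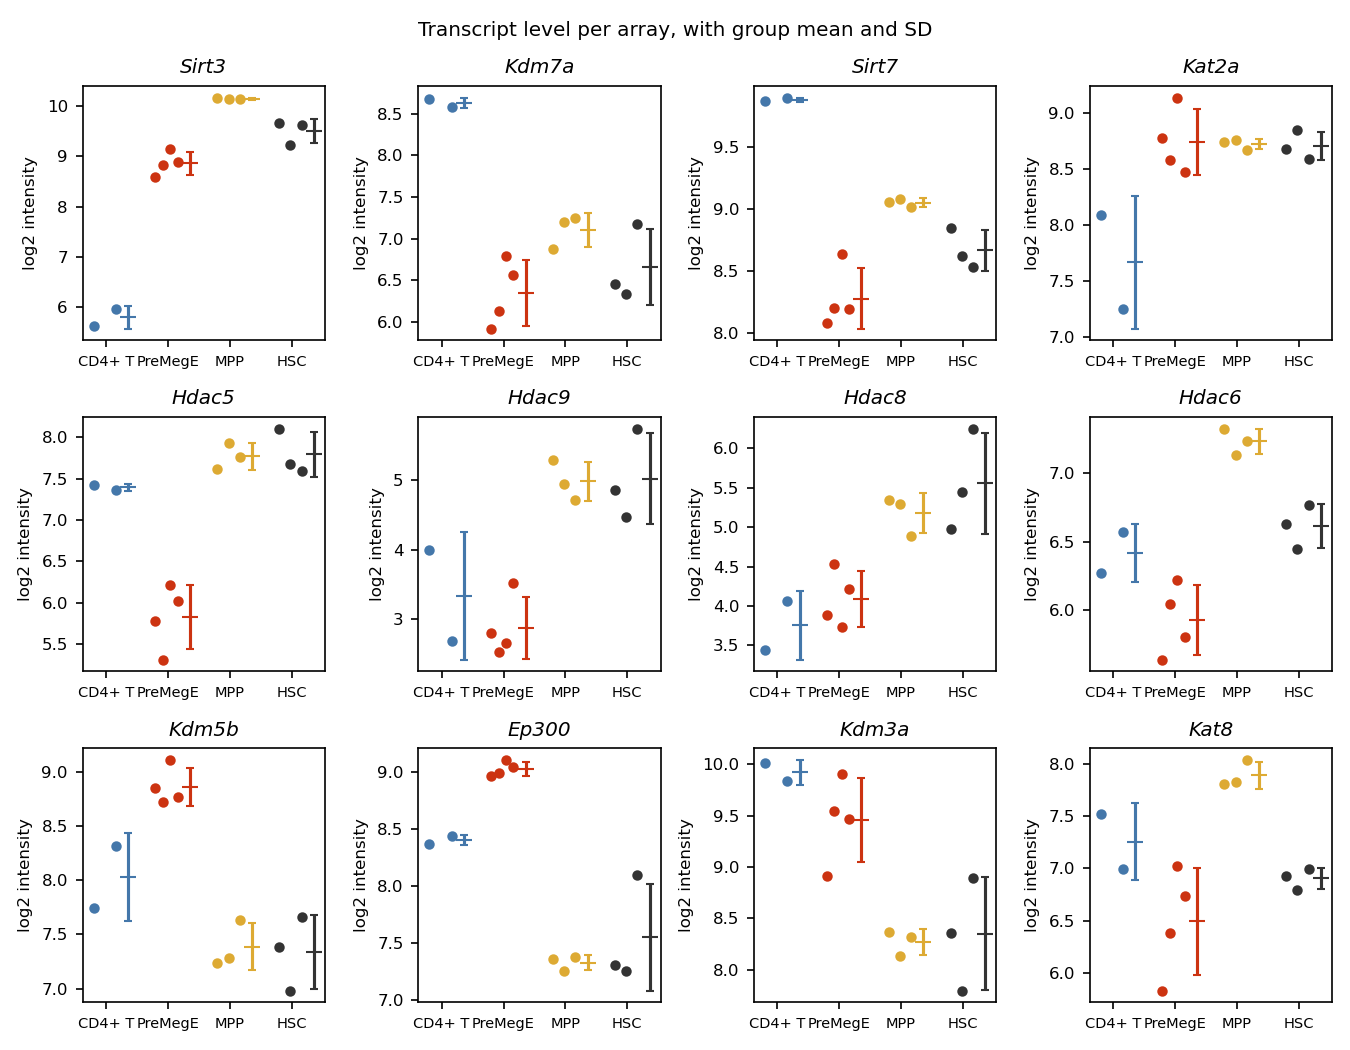
Log2 intensity (y axis) of 12 enzymes on each array, with points for arrays in the 4 populations and a bar at the side for the group mean and SD (n = 2 CD4+ T, 4 PreMegE, 3 MPP, 3 HSC). Sirt3 is below 6 on both CD4+ T cell arrays and above 8.5 on all others, and Hdac5 is lowest on the 4 PreMegE arrays.

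Among the sirtuins, Sirt3 showed the largest difference of any of the 37 enzymes. It is the main deacetylase of mitochondria and is known to help old stem cells withstand oxidative stress in mice. Sirt3 lay at 5.63 and 5.95 in CD4+ T cells, 8.58, 8.83, 9.14 and 8.89 in PreMegE, 10.17, 10.14 and 10.15 in MPP, and 9.67, 9.23 and 9.64 in HSC. The 4 groups did not overlap, and they ran from CD4+ T cells through PreMegE and HSC to MPP. CD4+ T cells lay 3.72 ± 0.19 below HSC (-3.72, 13.2-fold lower, adjusted p = 4.51e-10), 4.36 ± 0.19 below MPP (-4.36, 20.6-fold lower, adjusted p = 8.47e-11) and 3.07 ± 0.18 below PreMegE (-3.07, 8.42-fold lower, adjusted p = 1.86e-09). PreMegE lay 0.65 ± 0.16 below HSC (-0.65, adjusted p = 0.00648) and 1.29 ± 0.16 below MPP (-1.29, adjusted p = 1.41e-05). The MPP rise over HSC was 0.64 ± 0.17 (adjusted p = 0.0247) and ended without HSC replicate 2, the lowest HSC array, or any 1 of the MPP arrays, at adjusted p = 0.069 to 0.121. Sirt3 has 1 probe set on this array, so no second reading of the T cell level exists here.

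Sirt7, a nuclear and nucleolar sirtuin linked to ribosomal RNA genes and, in mice, to stem cell ageing, was highest in CD4+ T cells. Its levels were 9.87 and 9.89 in CD4+ T cells, 8.08, 8.21, 8.64 and 8.20 in PreMegE, 9.05, 9.08 and 9.01 in MPP, and 8.85, 8.62 and 8.53 in HSC. Both T cell arrays exceeded all others, by 1.21 ± 0.18 against HSC (adjusted p = 4.88e-05), 0.83 ± 0.18 against MPP (adjusted p = 0.00157) and 1.60 ± 0.17 against PreMegE (adjusted p = 1.62e-06). PreMegE lay 0.77 ± 0.15 below MPP (-0.77, adjusted p = 0.00082) and 0.39 ± 0.15 below HSC (-0.39, adjusted p = 0.0687). Without PreMegE replicate 3 the second difference was -0.50 and passed, at adjusted p = 0.0101.

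Sirt2, mainly a cytoplasmic deacetylase, had 8.88 and 8.76 in CD4+ T cells, 9.04, 8.87, 8.95 and 8.79 in PreMegE, 7.59, 7.88 and 7.85 in MPP, and 7.80, 7.84 and 7.36 in HSC. The arrays fell into 2 levels, with CD4+ T cells and PreMegE on the upper and MPP and HSC on the lower. Against HSC the difference was 1.16 ± 0.18 in CD4+ T cells (adjusted p = 7.63e-05) and 1.25 ± 0.15 in PreMegE (adjusted p = 1.3e-05). Against MPP it was 1.05 ± 0.18 (adjusted p = 0.000209) and 1.14 ± 0.15 (adjusted p = 2.2e-05).

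Sirt5, which removes succinyl and malonyl groups in mitochondria, lay at 5.59 and 5.71 in CD4+ T cells, 5.72 to 6.35 in PreMegE, 6.27 to 6.67 in MPP and 5.99 to 6.12 in HSC. It was lower in CD4+ T cells than in MPP by 0.81 ± 0.19 (-0.81, adjusted p = 0.00272). Its difference between PreMegE and MPP, -0.43 ± 0.16, was at the threshold (adjusted p = 0.0497) and ended when any 1 of 10 arrays was left out, at adjusted p = 0.0546 to 0.214. Without PreMegE replicate 3 the T cell difference from PreMegE passed, at -0.49 (adjusted p = 0.0326), against -0.39 ± 0.18 (adjusted p = 0.12) with it. On a second Sirt5 probe set MPP lay 1.31 above HSC (adjusted p = 0.0131), where the brightest gave 0.41 without a call. Sirt1 and Sirt6, nuclear sirtuins of DNA repair and metabolism, were called in 0 of the 6 comparisons. In the 2 CD4+ T arrays Sirt1 had 7.84 and 6.80, and without the first of them it was called lower there than in PreMegE and MPP, at -1.21 (adjusted p = 0.018) and -1.19 (adjusted p = 0.022).

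Of the 9 acetyltransferases, 4 rose and 2 fell in CD4+ T cells against HSC, 3 rose and 2 fell against MPP, and 4 rose and 2 fell against PreMegE. In PreMegE 2 rose and 0 fell against HSC (11.9% and 17% of all genes), and 2 rose and 2 fell against MPP (13.5% and 19.5%). In MPP 1 rose and 0 fell against HSC (6.38% and 4.93%). Of all genes, 17% rose and 20.8% fell in CD4+ T cells against HSC, 15.5% and 20% against MPP, and 16.3% and 16.8% against PreMegE. The class medians in these 3 comparisons were 0.58, 0.26 and -0.28, where those of all genes were -0.06, -0.02 and -0.06. Each of the T cell calls against PreMegE ended when 1 array was left out. So did those of Kat2b, Kat6a, Kat2a and Kat7 against HSC, and of Kat2b, Kat6a and Kat2a against MPP. Ep300 and Crebbp encode p300 and CBP, paralogous coactivators that acetylate enhancers. Ep300 was highest in PreMegE, at 8.97, 8.99, 9.11 and 9.04, against 8.37 and 8.44 in CD4+ T cells, 7.36, 7.25 and 7.38 in MPP, and 7.30, 7.25 and 8.09 in HSC. Arrays of PreMegE, of CD4+ T cells and of MPP with HSC formed 3 levels without overlap, with HSC replicate 3 apart from the other HSC arrays. The PreMegE difference was 1.48 ± 0.18 from HSC (adjusted p = 1.32e-05) and 1.70 ± 0.18 from MPP (adjusted p = 2.12e-06). CD4+ T cells lay 0.85 ± 0.21 above HSC (adjusted p = 0.00425) and 1.08 ± 0.21 above MPP (adjusted p = 0.00073). They lay 0.62 ± 0.20 below PreMegE (-0.62, adjusted p = 0.0255), a call that ended without either T cell array, at adjusted p = 0.124 and 0.0884.

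Crebbp had its highest values in CD4+ T cells, 10.04 and 9.97, against 8.99, 9.31, 9.61 and 9.15 in PreMegE, 9.37, 9.47 and 9.57 in MPP, and 8.95, 8.58 and 9.28 in HSC. T cells lay 1.06 ± 0.21 above HSC (adjusted p = 0.000801) and 0.74 ± 0.20 above PreMegE (adjusted p = 0.00933), a call ending without CD4+ T replicate 1 at adjusted p = 0.0631. The second of 4 Crebbp probe sets gave 0.93 and 0.41 in these contrasts, the call against PreMegE being lost at adjusted p = 0.326. The dimmer 2 disagreed on PreMegE, which lay at -0.73 and 1.70 from HSC. MPP differed from HSC by 0.53 ± 0.19 (adjusted p = 0.0968), and without HSC replicate 3 by 0.70 (adjusted p = 0.034). The T cell difference from MPP, 0.54 ± 0.21 (adjusted p = 0.0639), passed without HSC replicate 2 or 3 or PreMegE replicate 3, at adjusted p = 0.0411 to 0.0432.

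The GNAT enzymes Kat2a (GCN5) and Kat2b (PCAF) alternate as the catalytic subunit of the SAGA and ATAC complexes, and in CD4+ T cells they moved apart. Kat2a had 8.09 and 7.25 in CD4+ T cells, 8.78, 8.58, 9.14 and 8.47 in PreMegE, 8.74, 8.76 and 8.67 in MPP, and 8.68, 8.85 and 8.59 in HSC. Kat2b had 9.40 and 9.24 in CD4+ T cells, 8.18, 8.61, 9.12 and 8.62 in PreMegE, 8.34, 8.22 and 8.50 in MPP, and 8.25, 8.20 and 8.89 in HSC. T cells were lowest for Kat2a and highest for Kat2b on every array. Kat2a differed from HSC by -1.04 ± 0.24 (adjusted p = 0.0021), from MPP by -1.06 ± 0.24 (adjusted p = 0.00193) and from PreMegE by -1.08 ± 0.22 (adjusted p = 0.00118). Without CD4+ T replicate 2 all of these ended, at -0.62 to -0.65 and adjusted p = 0.0539 to 0.0693. They were also lost on the second Kat2a probe set, which gave -0.13 against HSC, -0.27 against MPP and 0.072 against PreMegE. Kat2b differed from HSC by 0.88 ± 0.25 (adjusted p = 0.0111), from MPP by 0.96 ± 0.25 (adjusted p = 0.00617) and from PreMegE by 0.69 ± 0.24 (adjusted p = 0.0366). The first pair ended without CD4+ T replicate 1, at adjusted p = 0.076 and 0.0501, and the last without either T cell array or PreMegE replicate 1, 2 or 4, at 0.0649 to 0.184. A dimmer Kat2b probe set differed from HSC by -0.97 in CD4+ T cells and by -1.01 in PreMegE.

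Kat8 and Kat6a stood out among the MYST enzymes. Kat8 (MOF), which acetylates H4K16 within the MSL and NSL complexes, had 7.52 and 6.99 in CD4+ T cells, 5.83, 6.38, 7.02 and 6.74 in PreMegE, 7.80, 7.83 and 8.04 in MPP, and 6.93, 6.79 and 6.99 in HSC. MPP were above every other array. PreMegE lay 1.40 ± 0.23 below MPP (-1.40, adjusted p = 0.000168), and MPP 0.99 ± 0.24 above HSC (adjusted p = 0.0148). The call of MPP above HSC ended without HSC replicate 2 or MPP replicate 3, at adjusted p = 0.0558 and 0.0711. CD4+ T cells were 0.76 ± 0.26 above PreMegE (adjusted p = 0.0323), which ended without CD4+ T replicate 1 or PreMegE replicate 1 or 2, at 0.0641 to 0.306. Without PreMegE replicate 3 Kat8 was also called lower in PreMegE than in HSC (-0.59, adjusted p = 0.0486), and without PreMegE replicate 1 or 3 it was called lower in CD4+ T cells than in MPP (-0.64, adjusted p = 0.0267 and 0.0461).

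Kat6a, the MOZ enzyme of stem cells, had 9.17 and 8.63 in CD4+ T cells, 9.18, 9.02, 9.34 and 9.19 in PreMegE, 8.13, 8.06 and 8.03 in MPP, and 8.20, 7.93 and 8.31 in HSC. It was lowest in MPP and HSC on every array. PreMegE lay 1.03 ± 0.16 above HSC (adjusted p = 0.000111) and 1.11 ± 0.16 above MPP (adjusted p = 4.3e-05), and CD4+ T cells 0.76 ± 0.19 above HSC (adjusted p = 0.00395) and 0.83 ± 0.19 above MPP (adjusted p = 0.00211). Without CD4+ T replicate 1 the T cell calls ended, at 0.49 and 0.56 and adjusted p = 0.0971 and 0.0581. A second Kat6a probe set gave 0.85 for PreMegE against HSC (adjusted p = 0.0562). Its paralogue Kat6b was not called in any of the 6 comparisons, although without CD4+ T replicate 1 it was called lower in T cells than in MPP (-1.25, adjusted p = 0.0179) and PreMegE (-1.30, adjusted p = 0.0131), and without PreMegE replicate 3 lower than in MPP (-0.77, adjusted p = 0.034).

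Kat7 (HBO1), which acetylates H3K14 at replication origins and promoters, had 7.77 and 7.66 in CD4+ T cells, 7.95 to 8.13 in PreMegE, 8.51 to 8.93 in MPP and 8.24 to 8.39 in HSC. The 4 groups did not overlap. CD4+ T cells differed from HSC by -0.62 ± 0.16 (adjusted p = 0.00599) and from MPP by -0.99 ± 0.16 (adjusted p = 0.000147), and PreMegE from MPP by -0.65 ± 0.14 (adjusted p = 0.00152). The call against HSC ended without CD4+ T replicate 2, at adjusted p = 0.0527, and a dimmer probe set gave 0.73 in that contrast, 0.085 for CD4+ T cells against MPP and -0.59 for PreMegE against MPP, none of them called. Kat5 (TIP60), the NuA4 enzyme of DNA repair, was called between CD4+ T cells and PreMegE alone, at 6.43 and 6.29 against 5.65, 5.08, 5.68 and 5.86 (0.79 ± 0.23, adjusted p = 0.0118). Without CD4+ T replicate 1 this ended at adjusted p = 0.0869. Its differences of PreMegE from MPP, -0.53 ± 0.20 (adjusted p = 0.0535), and of CD4+ T cells from HSC, 0.58 ± 0.24 (adjusted p = 0.0669), passed without MPP replicate 3 or PreMegE replicate 4 (adjusted p = 0.0267 and 0.0355) and without PreMegE replicate 2 (adjusted p = 0.0365). A second Kat5 probe set gave -1.32 for PreMegE against MPP (adjusted p = 0.0203).

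**Figure D5:**
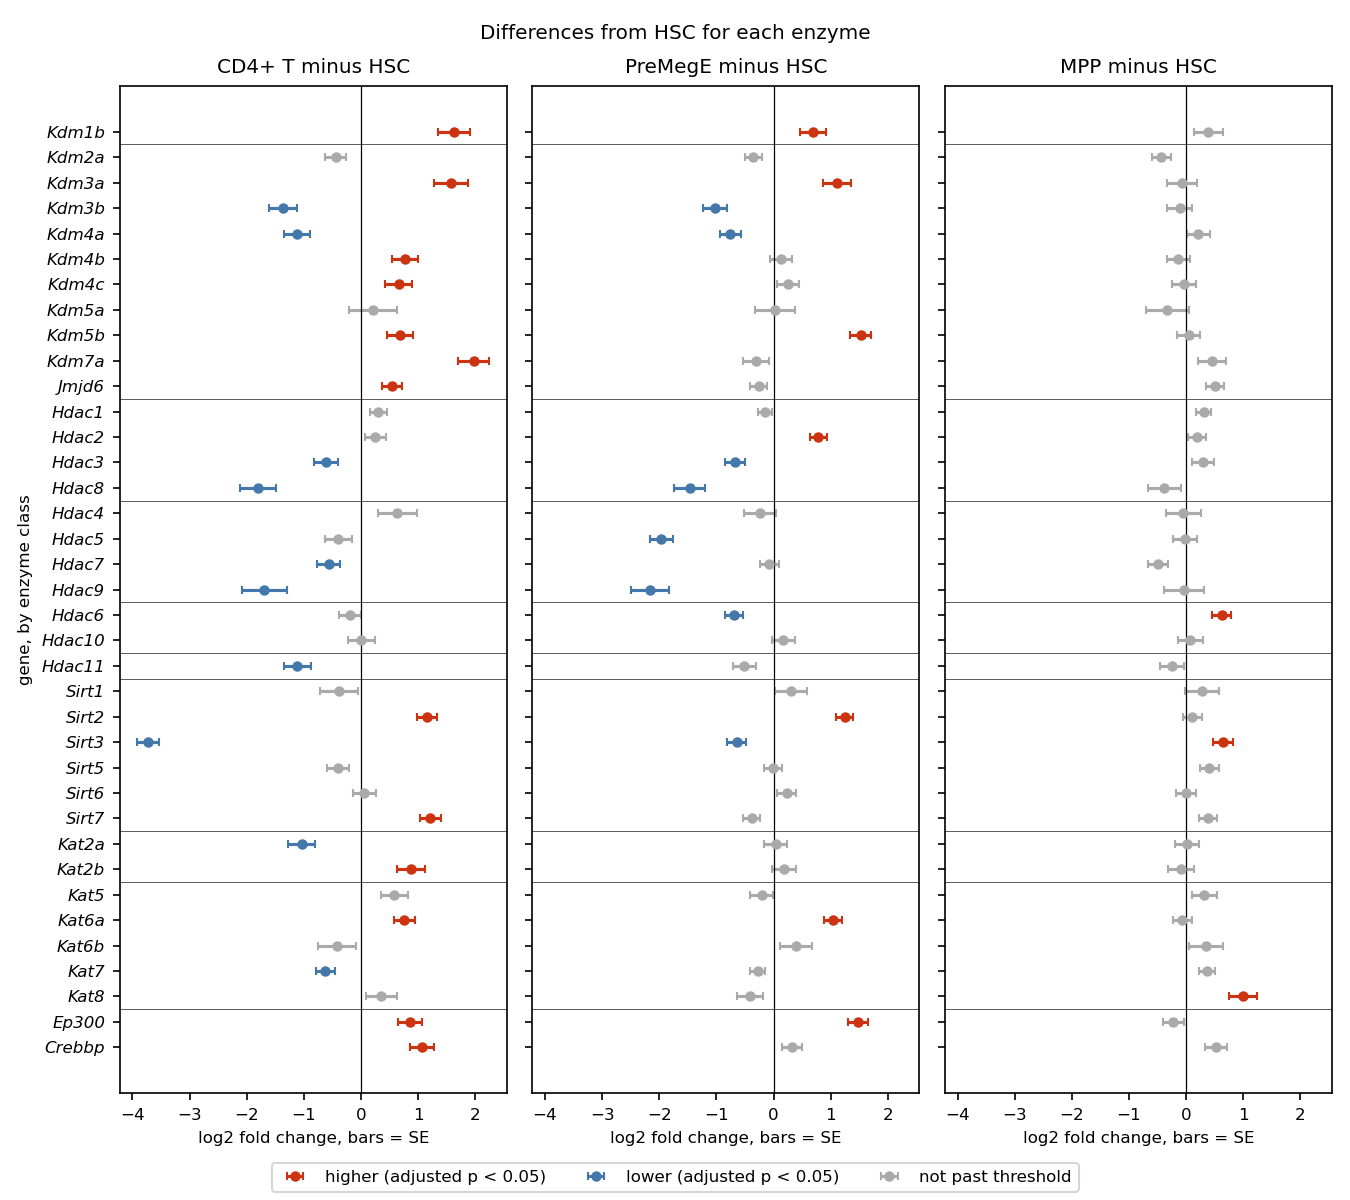
Log2 fold change with its SE (x axis) of each enzyme (y axis, by class) in CD4+ T cells, PreMegE and MPP, each minus HSC, with red for higher and blue for lower at adjusted p under 0.05 and grey for the rest. Of the 37, 13 are red and 10 blue in CD4+ T cells, 7 red and 8 blue in PreMegE and 3 red and 0 blue in MPP.

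Set side by side over the populations, the enzymes fell into a few patterns, which were chosen after their values were seen. The counts rest on single arrays and on the probe set chosen, as the ranges over the alternatives show. Those called higher in CD4+ T cells than in each of the other 3 were Kdm1b, Kdm4b, Kdm7a, Sirt7 and Kat2b, 5 of 37 (13.5%, against 9.73% of all genes). This count ran from 0, with the next brightest probe sets, to 8, and was 2 without CD4+ T replicate 1, 3 without CD4+ T replicate 2 and 3 without PreMegE replicate 2. Those called lower there were Sirt3 and Kat2a (5.41%, against 10.5%), a count of 1 to 4, and 1 without CD4+ T replicate 2. In PreMegE, Kdm5b, Hdac2 and Ep300 were called higher than in each of the others (8.11%, against 3.85%) and Hdac5 and Hdac6 lower (5.41%, against 4.9%). The first count was 1 without either CD4+ T cell array. The second was 5 without PreMegE replicate 3, and 1 without HSC replicate 1 or any 1 of the MPP, CD4+ T cell and other PreMegE arrays. MPP had Hdac6 and Sirt3 higher than all others (5.41%, against 2.67%) and 0 lower (against 0.956%). The count of 2 fell to 0 without HSC replicate 2 or any 1 of the MPP arrays, and to 1 without HSC replicate 1. In both CD4+ T cells and PreMegE, against both MPP and HSC, 5 were higher, Kdm3a, Kdm5b, Sirt2, Kat6a and Ep300 (13.5%, against 3.11% of all genes), and 6 were lower, Kdm3b, Kdm4a, Hdac3, Hdac8, Hdac9 and Sirt3 (16.2%, against 6.92%). This last division is also the one between the 2 earlier studies and the present one, so population and study cannot be told apart in it. Over the alternatives tried, its counts ran from 2 to 5 for the higher and from 1 to 6 for the lower genes. The shares of all genes given for these patterns include genes under the median level, which were called less often. Between CD4+ T cells and HSC, 60.7% of genes at or above that level were called, against 37.8% of all genes. Pattern shares at matched level are not given here, and the part of level in any excess was not tested.

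The complexes in which these enzymes work, further enzymes of these kinds and the partners of class IIa HDACs were followed through 112 measured genes, listed by function. They were called in 14 cases between MPP and HSC (12.5%, against 11.3% of all genes), 49 between PreMegE and HSC (43.8%, against 28.9%) and 48 between PreMegE and MPP (42.9%, against 33%). Between CD4+ T cells and HSC 60 were called (53.6%, against 37.8%), between CD4+ T cells and MPP 55 (49.1%, against 35.5%) and between CD4+ T cells and PreMegE 46 (41.1%, against 33.1%). Shares among genes at or above the median level are not given for this list, and the part of level was not tested. Of 31 HDAC corepressor subunits, 12 rose and 6 fell in PreMegE and 11 rose and 6 fell in CD4+ T cells against HSC, and of 44 subunits of acetyltransferase complexes 8 rose and 9 fell in PreMegE and 12 rose and 13 fell in CD4+ T cells. Of all genes 11.9% rose and 17% fell in PreMegE against HSC, and 17% rose and 20.8% fell in CD4+ T cells. In PreMegE, Arid4b of the Sin3 complex lay 1.64 ± 0.20 above HSC (adjusted p = 1.81e-05). Mta2 of NuRD and Rcor3 of CoREST lay 1.34 ± 0.20 and 1.56 ± 0.27 below HSC there (-1.34 and -1.56, adjusted p = 0.000115 and 0.000326). Mideas, which joins HDAC1 and HDAC2 in the MiDAC complex, was 1.69 ± 0.25 above MPP in PreMegE (adjusted p = 6.56e-05).

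In CD4+ T cells the NuRD helicase Chd3 and the Sin3 subunit Sap30 moved in opposite directions. Chd3 had 9.88 and 9.59 in CD4+ T cells, 6.31 to 6.95 in PreMegE, 7.54 to 7.73 in MPP and 6.54 to 7.28 in HSC. Sap30 had 5.74 and 3.55 in CD4+ T cells, 8.40 to 8.65 in PreMegE, 8.46 to 8.62 in MPP and 7.61 to 8.10 in HSC. The T cell difference from HSC was 2.85 ± 0.22 for Chd3 (adjusted p = 4.86e-08) and -3.21 ± 0.40 for Sap30 (adjusted p = 8.98e-06), and the 2 T cell arrays differed by over 2 units for Sap30.

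ING proteins read H3K4 methylation for acetyltransferase and Sin3 complexes. Ing2, listed here with the acetyltransferase subunits and known from Sin3, had 7.52 and 7.78 in CD4+ T cells, 6.97 to 7.47 in PreMegE, 9.17, 9.33 and 9.23 in MPP, and 7.30, 6.57 and 6.89 in HSC. MPP were above all other arrays, by 2.32 ± 0.19 against HSC (adjusted p = 9.17e-07). Ing3 of the NuA4 complex was 1.45 ± 0.24 higher in MPP (adjusted p = 0.000955) and 1.75 ± 0.23 higher in PreMegE (adjusted p = 3.02e-05) than in HSC. Mbtd1, also of NuA4, had 7.80 and 8.64 in CD4+ T cells, 10.34 to 11.01 in PreMegE, 8.91 to 9.02 in MPP and 8.61 to 9.24 in HSC. It was 1.71 ± 0.21 above HSC in PreMegE (adjusted p = 1.91e-05) and 2.44 ± 0.24 below PreMegE in CD4+ T cells (-2.44, adjusted p = 7.19e-07). Epc1, a NuA4 scaffold, lay 0.95 ± 0.16 below HSC in MPP (-0.95, adjusted p = 0.000902), and Tada2b and Tada1 of SAGA differed between PreMegE and MPP by 1.62 ± 0.19 and -1.33 ± 0.25 (adjusted p = 8.84e-06 and 0.00052).

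The 15 further genes listed with the demethylases include Hif1an, a hydroxylase rather than a demethylase. Of these 15, 1 rose and 2 fell in MPP against HSC (6.38% and 4.93% of all genes). In CD4+ T cells 2 rose and 4 fell against HSC (17% and 20.8%). Against MPP 1 rose and 2 fell there (15.5% and 20%), and against PreMegE 2 rose and 1 fell (16.3% and 16.8%). In PreMegE 2 rose and 4 fell against HSC (11.9% and 17%), and 1 rose and 2 fell against MPP (13.5% and 19.5%). By these counts, rises outnumbered falls in CD4+ T cells against HSC and MPP for the 11 listed demethylases and not for these 15. Several of the rises of the 11 ended when 1 array was left out, as given above. The 4 falls of the 15 against HSC included Hif1an and the Y-linked Kdm5d, whose values are given below. Kdm6b, which removes H3K27 methylation, was 1.24 ± 0.35 above HSC in MPP (adjusted p = 0.0298), and Kdm2b lay 2.20 ± 0.26 below MPP in CD4+ T cells (-2.20, adjusted p = 5.14e-06). The Y-linked Kdm5d was called lower in MPP and CD4+ T cells than in HSC, by 2.34 ± 0.61 and 2.44 ± 0.68 (-2.34 and -2.44). It lay at 2.45 on HSC replicate 1, at 6.02 and 5.68 on HSC replicates 2 and 3, where Xist was low, and at 2.24 to 2.76 on the other arrays.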

How the data were processed

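The authors deposited 1 intensity per probe set and array, made with RMA per the submitters' processing notes. The RMA version and the set of arrays normalised as one are not given in the sources used here. With array medians of 14.4 to 15.6 and no value below 0 the deposited scale is linear, so log2 was taken first; nothing else was normalised or filtered. Of 45101 probe sets, 64 controls were left out, 34945 had a single gene symbol, 932 several and 9160 none in the platform annotation. A gene was read from its single-symbol probe set with the highest mean over 12 arrays, which gave 18193 genes. Groups were taken from the sample titles. The number of arrays limits the precision.

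Group means were estimated for all 12 arrays in a single limma fit (version 3.58.1, R 4.3.3, tables read through the data.table package) with moderated variances. Tests were two-sided, with Benjamini-Hochberg adjustment over every gene, and a call needed an adjusted p under 0.05. The procedure was tested on simulated data. Where leaving out arrays leaves 1 in a group, it is assumed to vary like the other groups. The alternatives were quantile and cyclic loess normalisation, genes under the median level left out, a floor of 8 intensity units, the next brightest and the mean of all probe sets, a fit to the compared groups alone, trended robust variances, the replicate number as a block, PreMegE replicates 3 and 4 averaged (the description of replicate 4 carries the number 3), HSC replicates 2 and 3 left out, and each array left out in turn. Same-numbered arrays had deviations from their group means that correlated at -0.12 to 0.41. With 2 to 4 arrays in a group this cannot decide whether equal numbers mark pairs. Nothing in the labels ties them, so the main fit used no pairing. Counts over several comparisons were added after seeing the data.

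The members and all gene lists were chosen with earlier results of these data known. All 37 members are reported. Of the partner genes, those named were taken from the 3 largest rises and 3 largest falls per comparison among called genes with no overlap between the arrays of both groups. Of 117 partner genes, 112 were used here. Promoter sequences are from RefSeq, assembly GRCm38.p6.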

Additional observations from a re-analysis of the deposited data

Results flagged for a closer look

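Kat6b in PreMegE had 1 array far from the others of its group. Replicate 3 lay at 7.28, and the nearest of the other PreMegE arrays at 6.33, so that the gap took 0.901 of the group's range. This share is above the 95% critical value of Dixon's test for 4 arrays. All 37 enzymes were examined in this way in PreMegE, the only group of 4, and 1 stood out, where chance alone would mark about 1 group in 20. Kat6b was not called in any of the 6 comparisons.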

How the results depend on the processing

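Across the alternatives, 4671 of the single-gene values kept their side of the threshold, 174 kept the direction and lost the call, and 128 kept it and gained a call. Another 19 turned in direction with a call before or after the change. Values that turned without any call are counted among the 4671. Using the next brightest probe set, which exists for only 21 of the 37 enzymes, left 7 calls between CD4+ T cells and HSC, 7 between CD4+ T cells and MPP, 6 between CD4+ T cells and PreMegE, 11 between PreMegE and MPP, 7 between PreMegE and HSC and 2 between MPP and HSC. With it the log2 difference of CD4+ T cells from HSC turned to 0.18 for Kdm4a, -0.51 for Kdm5b, 0.47 for Hdac7, 0.30 for Hdac9, -0.97 for Kat2b and 0.73 for Kat7. The difference of CD4+ T cells from MPP turned to 0.071 for Kdm4a, -0.52 for Kdm5b, 0.49 for Hdac9, -0.078 for Kat2b and 0.085 for Kat7, and that of Kat2a from PreMegE to 0.072. In PreMegE the difference from HSC turned to 1.11 for Kdm2a, 0.085 for Kdm4a, 1.76 for Hdac4 and -1.01 for Kat2b, and that from MPP to 1.08 for Hdac4 and 0.13 for Hdac9. With the mean of all probe sets Hdac4 turned to 0.49 in PreMegE against HSC, and 6 enzymes were called between MPP and HSC. With HSC replicates 2 and 3 left out, 0 were called between MPP and HSC by limma. Leaving out each array in turn gave 15 to 24 calls between CD4+ T cells and HSC, 16 to 26 between CD4+ T cells and MPP, 10 to 20 between CD4+ T cells and PreMegE, 19 to 21 between PreMegE and MPP, 14 to 17 between PreMegE and HSC and 0 to 5 between MPP and HSC. The causes of these changes were not tested. With the replicate number as a block the counts were 24, 24 and 18 for CD4+ T cells against HSC, MPP and PreMegE, 21 and 16 for PreMegE against MPP and HSC, and 3 for MPP against HSC. Signal near background limits Hdac9. It may also limit Hdac8, with means of 3.75 in CD4+ T cells and 4.09 in PreMegE. These lay above the lower quartiles over genes of 3.27 and 3.32 in those groups. The 2 CD4+ T cell arrays limit every comparison with these cells.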
